A study of Arabidopsis thaliana with 18 samples.

Results

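XERICO (AT2G04240) of Arabidopsis thaliana, a small RING-type protein linked to the accumulation of the hormone abscisic acid (ABA), was followed on 18 Affymetrix ATH1 arrays. It is 1 of 13286 genes that could be given a probe set of their own, and its single probe set had a value on all 18 arrays. Genes called measured below are those with such a probe set. The annotation used named no gene for 8730 of 22746 probe sets, so other genes may be on the array without a name here. The gene was chosen by its name and with its values on these arrays known. Its levels and differences are therefore given as a description, without a test, and tests are reported only for other genes.

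Columbia-0 plants were raised in hydroponic MGRL medium, and leaves and roots were profiled in 3 states with 3 biological replicates each. In both organs the groups were osmotic plants, which had 0.3 M mannitol in the medium for 3 h in the light, day 11 plants, and mock plants. The day 11 groups carry an osmotic treatment label and were taken as the stressed plants moved back to basal medium for 1 day. All mock and osmotic plants carry the label of day 10, so a comparison with day 11 also holds a day of age and the transfer, and the treatment description speaks of plants of 30 days. All plants were wild type, and each array pools the cell types of an organ, so that fewer cells of a type and less RNA per cell cannot be told apart. Nothing in the labels ties replicates of the same number to one another.

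ABA rises when plants lose water, and it is held down by oxidation and by attachment to glucose. It is sensed by soluble receptors whose signal closes stomata and switches on protective proteins of dehydrated cells. RING proteins commonly act as ubiquitin ligases. Plants with more XERICO transcript are known to hold more ABA and to resist drought, and DELLA proteins, the growth repressors that gibberellin removes, are known to raise XERICO transcripts. No sequence of the gene or its protein was used here.

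The labelled organs were borne out by their markers. All 4 measured leaf markers were lower in mock roots than in mock leaves, with a median difference of -8.11, and both measured root markers were higher, with a median of 6.86, where 23% of all probe sets were called lower and 33.5% higher. Expression values are log2 values as deposited, and a difference of 1 is a factor of 2 between group means. Arrays of a group correlated at 0.9867 or more across probe sets, which are not independent replicates, and array medians lay between 6.549 and 6.686. XERICO lay far above the lower quartile of all values (4.354) on every array. A mean below that quartile is called near background here.

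XERICO stood highest in mock roots and lowest in day 11 leaves, 3.46-fold apart. In mock roots the 3 arrays read 10.06, 10.28 and 9.70, a mean of 10.01 ± 0.30 (SD, n = 3). The osmotic leaf arrays followed with 9.46, 9.36 and 9.42 (mean 9.41 ± 0.05), close to day 11 roots with 9.16, 9.43 and 9.61 (mean 9.40 ± 0.22). Osmotic roots read 9.46, 9.31 and 9.38 (mean 9.38 ± 0.08). Below these 3 groups, mock leaves read 8.71, 8.40 and 8.35 (mean 8.49 ± 0.19), and day 11 leaves read 8.25, 8.11 and 8.32 (mean 8.22 ± 0.11). Osmotic leaves, day 11 roots and osmotic roots overlapped and do not differ beyond their spread. The other neighbours in this order did not overlap, although the lowest mock leaf array (8.35) was just above the highest day 11 leaf array (8.32).

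**Figure D1:**
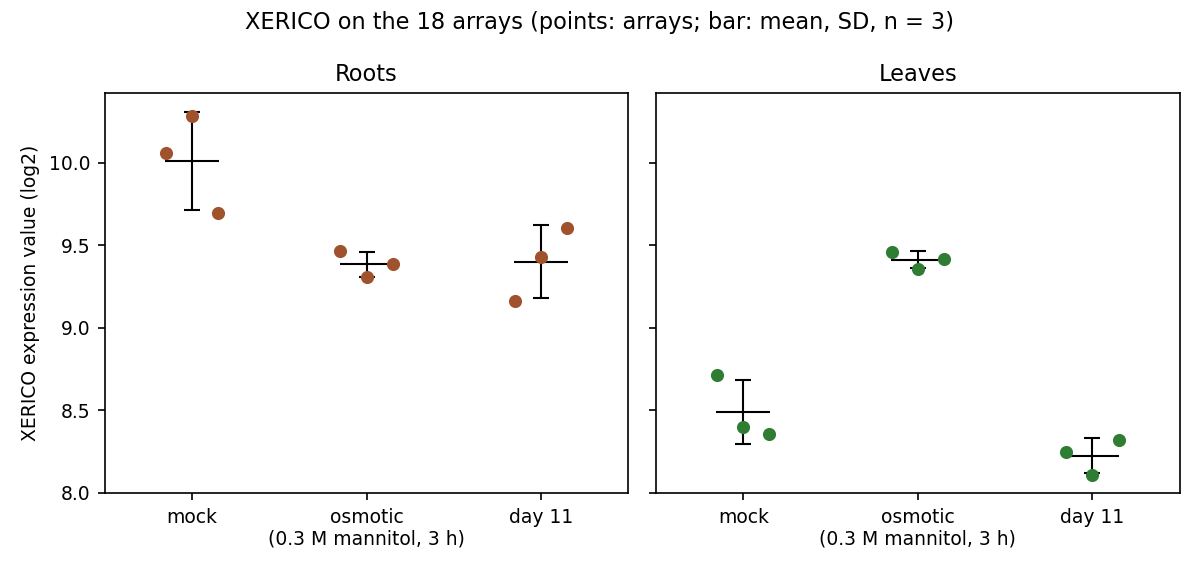
XERICO expression (log2, vertical axis) on each array in roots (left) and leaves (right) for mock, osmotic and day 11 plants. Points are arrays, the horizontal bar is the group mean and the error bar its SD (n = 3). The 3 osmotic leaf arrays lie between 9.36 and 9.46, level with the osmotic root arrays, between the mock leaf and the mock root arrays.

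In leaves, XERICO was higher under mannitol and was back at or below the mock level at day 11. The 3 osmotic leaf arrays (9.36 to 9.46) lay above the 3 mock leaf arrays (8.35 to 8.71), a difference of 0.92 ± 0.14 (SE of the fit over all arrays), or 1.90-fold. Of all probe sets, 14.3% had osmotic leaf arrays wholly above the mock leaf arrays, and 3.38% had a difference at least this large. Day 11 leaves (8.11 to 8.32) lay below osmotic leaves (9.36 to 9.46), a difference of -1.19 ± 0.14, or 2.28-fold lower. Day 11 leaf arrays wholly below the osmotic leaf arrays occurred for 13.3% of probe sets, and a difference at least as negative for 1.46%. Against mock leaves the day 11 leaf difference was -0.26 ± 0.14, and it shrank to -0.15 without mock leaf replicate 1, the highest mock array. Day 11 leaf arrays wholly below the mock leaf arrays occurred for 10.3% of probe sets.

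In roots, XERICO was lower under mannitol and was still low at day 11. The 3 osmotic root arrays (9.31 to 9.46) lay below the 3 mock root arrays (9.70 to 10.28), a difference of -0.63 ± 0.14, or 1.55-fold lower. Of all probe sets, 23.4% had osmotic root arrays wholly below the mock root arrays, and 7.54% had a difference at least as negative. Day 11 roots (9.16 to 9.61) overlapped osmotic roots, with a difference of 0.02 ± 0.14. Against mock roots they were lower by a similar amount, with a difference of -0.61 ± 0.14, or 1.53-fold lower. Day 11 root arrays wholly below the mock root arrays occurred for 17% of probe sets, and a difference at least as negative for 2.91%. The day 11 comparisons and the osmotic comparisons share the mock arrays. The highest day 11 root array (9.61) was near the lowest mock root array (9.70), and leaving out mock root replicate 3 or day 11 root replicate 3 took the day 11 difference to -0.77 or -0.72. Without mock root replicate 2, the highest mock root array, the osmotic root difference shrank to -0.49 and the day 11 root difference to -0.48.

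The difference between the organs closed under mannitol and opened again at day 11. Mock roots were above mock leaves by 1.53 ± 0.14, or 2.88-fold, with no overlap, as for 38% of probe sets. Osmotic roots and osmotic leaves differed by -0.03 ± 0.14, with overlapping arrays. Day 11 roots were above day 11 leaves by 1.18 ± 0.14, or 2.26-fold, with no overlap, as for 36.4% of probe sets. Among the 2137 probe sets whose mock difference was at least that of XERICO, the median difference was 2.59 in mock plants, 2.27 in osmotic plants and 2.44 at day 11. Of these 2137, 25 (1.17%, XERICO included) had an osmotic root minus leaf difference as low as that of XERICO. Of the 25, 11 also had a day 11 difference at least as high. The values of XERICO set these cut-offs, so the counts only describe it.

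**Figure D2:**
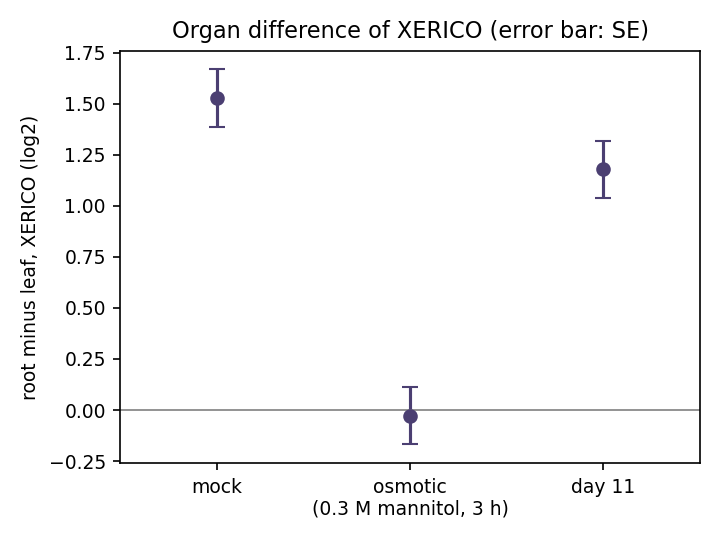
Root minus leaf difference of XERICO (log2, vertical axis) in mock, osmotic and day 11 plants. Points are differences of group means and error bars are SE from the fit over all 18 arrays. The osmotic point lies at -0.03, whereas the mock and day 11 points lie at 1.53 and 1.18.

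XERICO moved in opposite directions in the 2 organs under mannitol. The root minus leaf difference of the mannitol response was -1.55 ± 0.20 for XERICO, and 1.42% of probe sets had one at least as negative. Of 22746 probe sets, 28, XERICO among them, were both as much higher in osmotic leaves and as much lower in osmotic roots. These cut-offs are the values of XERICO itself, known when it was chosen, so the count is a description and no test. Past the adjusted p threshold of 0.05 of the limma fit, 115 probe sets rose in leaves and fell in roots, which is 5.87% of the 1960 that rose in leaves and 3.7% of the 3112 that fell in roots. The day 11 minus osmotic difference of XERICO was higher in roots than in leaves by 1.21 ± 0.20.

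XERICO varied little among osmotic arrays and more among mock arrays. Its SD was 0.05 in osmotic leaves and 0.08 in osmotic roots, where the median SD of all probe sets was 0.17 and 0.16. It was 0.19 in mock leaves and 0.30 in mock roots, beside medians of 0.14 and 0.12, and 92.4% of probe sets had a smaller SD than XERICO in mock roots. At day 11 the SD of XERICO was 0.11 in leaves and 0.22 in roots, beside medians of 0.15 and 0.13. With 3 arrays a group an SD is itself known only roughly.

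Of 141 genes on 8 lists of ABA metabolism, transport, signalling and response, 23 had a probe set named here. Receptors, phosphatases, kinases and transcription factors of ABA had none, so the core signalling chain was not analysed here. Under mannitol, 9 of the 23 rose and 1 fell in leaves, beside 8.62% of all probe sets called higher and 12% called lower. In roots, 7 rose and 1 fell, beside 10.6% called higher and 13.7% called lower. The median difference was 0.47 in leaves and 0.13 in roots, against -0.002 and -0.012 over all probe sets. The organ difference of the response was called higher in roots for 2 of the 23 and lower in roots for 5, beside 7.77% and 7.68% of all probe sets, and the 5 were 3 without mock leaf replicate 3, mock root replicate 3 or osmotic root replicate 1.

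**Figure D3:**
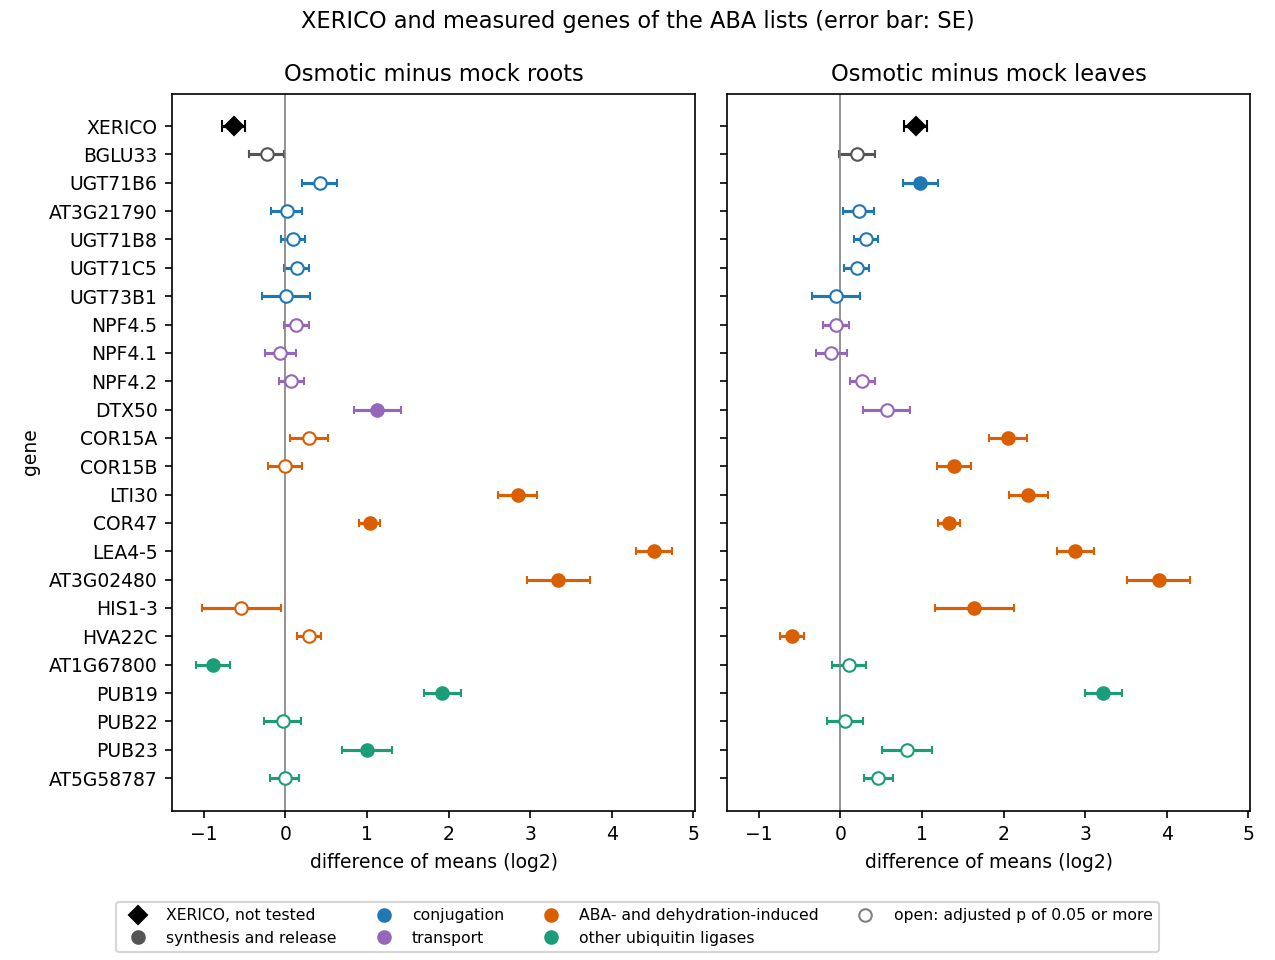
Osmotic minus mock difference (log2, horizontal axis) in roots (left) and leaves (right) for XERICO and the 23 measured genes of the ABA lists. Points are differences of means with SE, filled where the adjusted p was below 0.05 and open where it was not, and XERICO was not tested. XERICO lies left of 0 in roots (-0.63) and right of 0 in leaves (0.92), whereas LTI30, COR47, LEA4-5, AT3G02480 and PUB19 rose in both organs.

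Among the measured enzymes that release ABA or tie it to glucose, 1 rose in osmotic leaves and 0 passed in osmotic roots, beside 8.62% and 10.6% of all probe sets that rose there, and with so few genes nothing is read from these counts. BGLU33, a beta-glucosidase that frees ABA from its glucose ester, was the 1 measured gene of 15 on the synthesis and release list. It stood at 0.20 ± 0.22 in osmotic leaves (adjusted p = 0.59) and -0.23 ± 0.22 in osmotic roots (adjusted p = 0.49), where its level was below the lower quartile of the arrays. Of 5 measured conjugating glycosyltransferases, 0 passed in roots (0 at an unadjusted p under 0.05 in the limma fit) and UGT71B6, which glucosylates ABA, rose in leaves, where leaving out osmotic leaf replicate 1 gave 2 that rose. Its osmotic leaf arrays read 5.80, 6.39 and 6.55, above the mock leaf arrays at 5.39, 5.06 and 5.36, a difference of 0.98 ± 0.22 (adjusted p = 0.0033). In roots it stood at 0.42 ± 0.22 (adjusted p = 0.17), with a mock mean of 3.99 near background. The test of its organ difference gave -0.56 ± 0.30 (adjusted p = 0.25), which does not separate the organs. UGT73B1 stood at 0.01 ± 0.30 in osmotic roots (adjusted p = 0.99) and rose at day 11, to 6.88, 7.31 and 7.84 in day 11 roots, against 5.68, 5.96 and 6.18 in mock roots (1.40 ± 0.30, adjusted p = 0.0074).

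Among 4 measured ABA transporters, 1 passed the test in roots and 0 in leaves (0 at an unadjusted p under 0.05 in the limma fit, and 1 call without mock leaf replicate 3). Over all probe sets 10.6% rose and 13.7% fell in roots and 8.62% rose and 12% fell in leaves, and nothing is read from the count over 4 genes. DTX50, an exporter of ABA from the cell, read 6.36, 7.07 and 6.44 in osmotic roots, all above 5.55, 5.34 and 5.60 in mock roots, and rose by 1.13 ± 0.29 (adjusted p = 0.0074). In leaves it stood at 0.57 ± 0.29 (adjusted p = 0.19), and the organ difference was not called (0.56 ± 0.41, adjusted p = 0.41). DTX50 and XERICO thus lay on opposite sides of 0 in osmotic roots. The importers NPF4.1, NPF4.2 and NPF4.5 stood between -0.11 and 0.27 in both organs. NPF4.2 was near background in mock and osmotic plants of both organs, with means of 3.70 to 3.97. NPF4.1 and NPF4.5 had means of 4.53 to 4.94 there, little above the lower quartile of all values (4.354).

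Of 25 listed genes induced by ABA and dehydration, 8 were measured. In leaves 7 of the 8 rose and HVA22C fell (-0.59 ± 0.15, adjusted p = 0.0075), with a median difference of 1.85, on the side of XERICO. Over all probe sets 8.62% rose and 12% fell in leaves, with a median of -0.002. In roots 4 of the 8 rose, with a median of 0.66, whereas XERICO was lower. There 10.6% of all probe sets rose and 13.7% fell, with a median of -0.012. LEA4-5, a late embryogenesis abundant protein that shields cells from drying, read 9.45, 9.41 and 8.99 in osmotic roots and 4.81, 4.93 and 4.58 in mock roots, a rise of 4.51 ± 0.22 (adjusted p = 9.5e-11). AT3G02480, also on this list, rose by 3.35 ± 0.39 in roots (adjusted p = 3.4e-06) and by 3.90 ± 0.39 in leaves (adjusted p = 2.6e-06). LTI30, a dehydrin, rose by 2.85 ± 0.24 in roots (adjusted p = 7.9e-08) and by 2.304 ± 0.24 in leaves (adjusted p = 4.7e-06). COR47, another dehydrin, rose by 1.03 ± 0.13 in roots (adjusted p = 1.1e-05) and by 1.33 ± 0.13 in leaves (adjusted p = 2.6e-06). On the same root arrays XERICO was thus lower and the transcripts of these 4 genes were higher. The other measured genes of this list were not called in roots.

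For some genes of this group the leaf response exceeded the root response, as the XERICO values did. COR15A, which protects chloroplast membranes, had an organ difference of -1.77 ± 0.33 (adjusted p = 0.0013), with a mock root mean of 4.23 near background. COR15B had -1.41 ± 0.29 (adjusted p = 0.0031). Its means of 4.36 in mock roots and 4.35 in osmotic roots lay at the lower quartile of all values (4.354). Unlike these genes, XERICO lay far above that quartile in roots. HIS1-3, a drought-linked variant of linker histone H1, read 7.25, 7.26 and 8.22 in osmotic leaves, against 5.64, 6.38 and 5.78 in mock leaves, and rose by 1.64 ± 0.48 (adjusted p = 0.02). In roots it stood at -0.54 ± 0.48 (adjusted p = 0.46), and its organ difference was -2.18 ± 0.68 (adjusted p = 0.036). For HIS1-3 the leaf rise was no longer called when mock leaf array 1 (adjusted p = 0.066), mock leaf array 3 (0.069) or osmotic leaf array 3 (0.1) was left out. The same 3 arrays, mock root arrays 2 and 3 and osmotic root arrays 1 and 3 each ended the call of its organ difference (adjusted p = 0.064 to 0.1). LEA4-5 and HVA22C differed the other way (1.63 ± 0.31, adjusted p = 0.0016, and 0.88 ± 0.21, adjusted p = 0.0074).

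Of 5 measured ubiquitin ligases linked to ABA, 2 rose and 1 fell in roots, and 1 rose in leaves. Over all probe sets 10.6% rose and 13.7% fell in roots, and 8.62% rose and 12% fell in leaves. Nothing is read from counts over 5 genes. The leaf count was 2 without day 11 leaf replicate 1 or osmotic root replicate 2 and 3 without osmotic leaf replicate 1. PUB19, a U-box ligase that dampens ABA responses, read 7.65 to 8.08 in osmotic roots and 5.75 to 6.07 in mock roots, a rise of 1.92 ± 0.23 (adjusted p = 4.2e-06). In leaves it rose by 3.22 ± 0.23, and the organ difference of -1.30 ± 0.32 (adjusted p = 0.0099) had the sign of that of XERICO. AT1G67800, also on the list of ligases, fell in osmotic roots. Its osmotic root arrays read 8.28, 8.74 and 8.59, below 9.36, 9.23 and 9.70 in mock roots, a difference of -0.89 ± 0.21 (adjusted p = 0.0038). In leaves it stood at 0.10 ± 0.21 (adjusted p = 0.8), with an organ difference of -0.99 ± 0.29 (adjusted p = 0.028). The organ difference missed the threshold when any of these arrays was left out: mock leaf 2 (adjusted p = 0.082), mock leaf 3 (0.061), mock root 3 (0.076), osmotic leaf 2 (0.075) and osmotic root 1 (0.072). Like XERICO, AT1G67800 was still low in day 11 roots, at 8.38, 8.21 and 8.71 (-0.99 ± 0.21 against mock, adjusted p = 0.0069). PUB23, a U-box ligase of drought responses, rose by 1.00 ± 0.30 in osmotic roots (adjusted p = 0.021). That call ended without mock root replicate 2 (adjusted p = 0.12) or osmotic root replicates 2 (0.08) or 3 (0.065).

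Of 17 genes with a RING-H2 or RING finger name in the RefSeq gene table, 2 were measured. BRH1, a brassinosteroid-responsive RING-H2 gene, rose by 0.62 ± 0.17 in osmotic leaves (adjusted p = 0.015) and by 0.54 ± 0.17 in osmotic roots (adjusted p = 0.028). In leaves the adjusted p rose to 0.057 without mock leaf replicate 3 and to 0.072 without osmotic leaf replicate 2, and the root call was lost without mock root replicates 1 (0.11) or 3 (0.052) or osmotic root replicate 2 (0.18). In roots it also missed the threshold with array weights (0.29, adjusted p = 0.12) and with only the arrays of the comparison (adjusted p = 0.063). RHF1A, another RING-H2 ligase, stood at 0.52 ± 0.22 in osmotic leaves (adjusted p = 0.11) and 0.19 ± 0.22 in osmotic roots (adjusted p = 0.58).

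Of 25 genes of gibberellin metabolism, its receptors and the DELLA proteins, 4 had a probe set named here. No DELLA gene was among them, so DELLA transcripts were not analysed here. GID1A, a gibberellin receptor, read 7.38, 7.45 and 7.10 in osmotic roots, below 7.89, 7.92 and 7.71 in mock roots, a fall with a difference of -0.53 ± 0.14 (adjusted p = 0.011). In leaves it stood at 0.23 ± 0.14 (adjusted p = 0.3), and the organ difference was -0.76 ± 0.20 (adjusted p = 0.015), of the same sign as that of XERICO. SLY1, the F-box protein that marks DELLA proteins for removal, fell in osmotic roots, with a difference of -0.44 ± 0.11 (adjusted p = 0.0065). GID1B, another gibberellin receptor, lay on the other side, at 8.68, 8.94 and 8.91 in osmotic roots against 8.03, 8.37 and 8.37 in mock roots (0.59 ± 0.25, adjusted p = 0.091), and with mock leaf replicate 2 left out 1 gene of the list was called higher in roots. GID1C, the other receptor, did not pass the test there (adjusted p = 1). The GID1A root call ended without osmotic root replicate 3 (adjusted p = 0.065) and the SLY1 root call without mock root replicate 2 (adjusted p = 0.053). At day 11 neither stood apart from mock roots (GID1A -0.03 ± 0.14, adjusted p = 0.93; SLY1 -0.13 ± 0.11, adjusted p = 0.52), where XERICO was still lower. In leaves 0 of the 4 passed in the limma fit, with 1 at an unadjusted p under 0.05, and leaving out either osmotic leaf array 3 or mock leaf array 1 gave 1 call. Over all probe sets 8.62% rose and 12% fell in leaves, and nothing is read from this count over 4 genes.

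Between the osmotic state and day 11, 2 of the 23 genes of the ABA lists rose and 8 fell in leaves, beside 9.13% and 7.96% of all probe sets. Those that rose in leaves numbered 1 when day 11 leaf array 3 or osmotic leaf array 2 was dropped. In roots 1 rose and 8 fell, beside 10.2% and 8.85%. Dropping osmotic root array 2 left 5 that fell and 2 that rose, and dropping day 11 root array 1 also gave 2 that rose. Of the 8 genes induced by ABA and dehydration, 6 fell in leaves with a median difference of -2.02, where XERICO was lower too, and 4 fell in roots, where XERICO stood at 0.02. LEA4-5 read 5.09, 4.97 and 4.98 in day 11 leaves, against 8.30, 8.99 and 7.87 in osmotic leaves.

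The genes of the ABA lists were also compared between day 11 and mock, and nothing is read from counts this small. In leaves 2 of 23 genes of the ABA lists were above mock, beside 0.721% of all probe sets called higher, and they were the U-box genes PUB22 (1.23 ± 0.22, adjusted p = 0.011) and PUB23 (1.58 ± 0.30, adjusted p = 0.015). Neither passed without mock leaf replicate 1 (adjusted p = 0.054 for PUB22 and 0.079 for PUB23) or with only the arrays of the comparison (0.051 and 0.063), and PUB23 did not without day 11 leaf replicates 2 or 3 (0.06 in both). In roots UGT73B1 was above mock and AT1G67800 below, beside 3.65% and 4.01% of all probe sets, and without day 11 root replicate 1 the genes above mock were 2. Of the 8 genes induced by ABA and dehydration, 0 passed in leaves and 0 in roots in the limma fit, with 3 and 2 at an unadjusted p under 0.05. Over all probe sets 248 of 22746 were called for day 11 against mock leaves and 1741 for day 11 against mock roots. A count of 0 in 8 genes is therefore not read as a return to mock.

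Markers of guard cells, leaves, roots, phloem and touch moved on the same arrays. Over all probe sets 8.62% rose and 12% fell in osmotic leaves, and 10.6% rose and 13.7% fell in osmotic roots. Nothing is read from counts over so few markers. Both measured guard cell markers fell in osmotic leaves, AT1G22690 with a difference of -2.54 ± 0.22 (adjusted p = 5e-07) and FAMA with -0.65 ± 0.20 (adjusted p = 0.023). Their summed linear signal was 155 to 225 in osmotic leaves, 633 to 806 in day 11 leaves and 642 to 936 in mock leaves, and 21.6 to 33.9 in all root arrays. The FAMA call ended without mock leaf replicates 1 (adjusted p = 0.061) or 3 (0.084) or osmotic leaf replicates 2 (0.065) or 3 (0.13), and with only the arrays of the comparison (0.058). All 3 measured touch-inducible genes, which respond to handling, rose under mannitol in both organs, with a summed linear signal of 601 to 1140 in osmotic roots against 139 to 208 in mock roots, and 499 to 1010 in osmotic leaves against 277 to 338 in mock leaves. At day 11 it was 722 to 1130 in leaves, where XERICO was low, and 165 to 232 in roots. The leaf count of 3 touch-inducible genes was 0 when mock leaf array 2 was dropped and 1 when mock leaf array 3, osmotic leaf array 2 or osmotic leaf array 3 was dropped. With only the arrays of the comparison, CML38 (adjusted p = 0.07) and AT1G76640 (0.11) were not called in leaves.

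Of the 4 measured leaf markers, 2 fell in osmotic leaves, SBPASE of the Calvin cycle (-0.92 ± 0.15, adjusted p = 0.00029) and PRK (-0.47 ± 0.16, adjusted p = 0.044), and the count was 1 without any single mock leaf array, osmotic leaf array 2 or 3, day 11 leaf array 3 or mock root array 1. Their summed linear signal was 22100 to 25400 in osmotic leaves, 24400 to 29400 in day 11 leaves and 28500 to 31200 in mock leaves. In osmotic roots, at low levels, RCA fell (-1.03 ± 0.18, adjusted p = 0.00032) and PSAE-1 rose (1.04 ± 0.25, adjusted p = 0.0043). Of the 2 measured root markers, AT3G01190 fell in osmotic roots (-0.82 ± 0.11, adjusted p = 3.1e-05), and the summed signal of both was 3780 to 4900 in osmotic roots, 5840 to 6880 in day 11 roots and 6560 to 7140 in mock roots. The 1 measured phloem marker, SWEET11, fell in day 11 roots (-0.83 ± 0.22, adjusted p = 0.026), where XERICO was low, and was not called without mock root array 1 (adjusted p = 0.14) or day 11 root arrays 1 (0.075) or 2 (0.14). Over all probe sets 12% fell in osmotic leaves, 10.6% rose and 13.7% fell in osmotic roots, and 4.01% fell in day 11 roots against mock. The part of these markers in the XERICO values was not tested.

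The genes most like XERICO were sought among 5136 genes whose group means spanned at least 1, by Pearson correlation over the 18 arrays, which share organ and treatment. Of these, 9 reached a correlation of 0.9 or more, and the median was 0.352. The most like were AT4G20320 (0.935), AT5G01800 (0.923), AT3G10250 (0.915) and AT5G47180 (0.911), followed by AT3G48020, AT5G66250, AT1G26665 and RD2, a gene named for its response to desiccation, at 0.902 to 0.903. AT5G01800 came closest in shape within both organs. Its means were 9.66 in osmotic roots, 9.65 in day 11 roots and 10.10 in mock roots, and 9.20 in osmotic leaves, 8.64 in day 11 leaves and 8.85 in mock leaves. Unlike XERICO, it kept osmotic roots above osmotic leaves. RD2 shared the leaf pattern, at 11.15 in osmotic leaves, 10.17 in day 11 leaves and 10.41 in mock leaves, but its osmotic roots (11.55) were not below its mock roots (11.44).

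With the mean of each organ removed first, only AT5G01800 reached 0.9 (0.903), followed by AT1G01640 (0.897) and AT4G20320 (0.884). Of the 8 genes most like XERICO, 2 were still among the first 8 in that ranking. The most unlike genes were AT5G43870 (-0.929), PDF1A, a peptide deformylase (-0.917), AT1G79770 (-0.914) and AT1G76405 (-0.907). PDF1A had means of 8.37 in osmotic roots and 8.06 in mock roots, and of 8.44 in osmotic leaves and 9.13 in mock leaves. It thus mirrored XERICO, with organs that also met under mannitol. These correlations describe the arrays that chose the genes and carry no test.

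**Figure D4:**
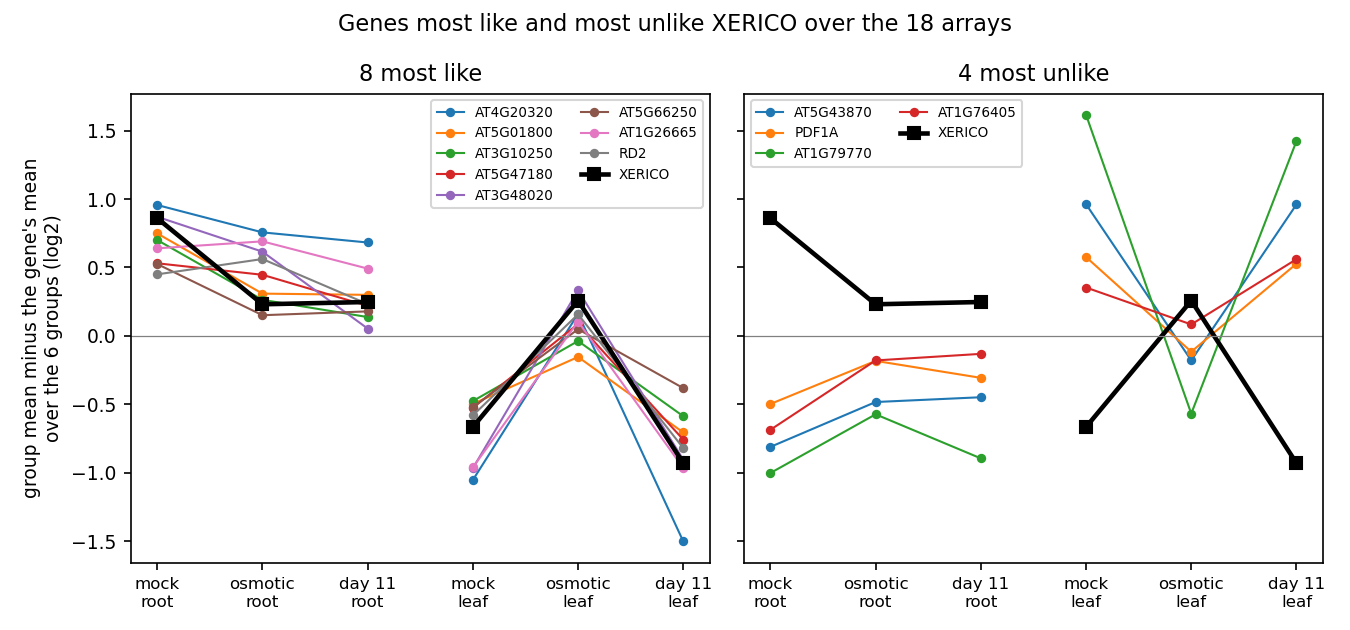
Group means of the 8 genes most like XERICO (left) and the 4 most unlike it (right), each minus its own mean over the 6 groups (log2, vertical axis), with XERICO in black. Lines join mock, osmotic and day 11 within an organ. The like genes are all above their mean in the 3 root groups and highest in osmotic leaves among the leaf groups, whereas the unlike genes are all below their mean in roots.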

How the data were processed

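The series held 18 Affymetrix ATH1 arrays of total RNA. The authors deposited log2 values for 22810 probe sets with a column per array. Their summarisation and normalisation are not given in the sources used here. Values ranged from 2.381 to 13.864 and were taken unchanged, and the 64 control probe sets were left out. Of the remaining 22746, the platform annotation gave 13513 one gene, 503 several genes and 8730 none. From these, 13286 genes with a locus tag were matched to RefSeq (TAIR10.1 gene table). The files name no genome build, so no coordinates are given, and detection calls were not used here.

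The means of the 6 groups were fitted together over the 18 arrays with limma 3.58.1 in R 4.3.3 (eBayes with a mean-variance trend), and p-values were adjusted by Benjamini-Hochberg over all probe sets of a comparison. An adjusted p below 0.05 is a call. With 3 arrays against 3, an exact permutation test of one value cannot go below 0.1. The fit was tested on simulated data. No depth applies to arrays, and their number limits the precision.

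XERICO, the 14 lists (201 genes) and the tests were chosen with earlier results of these data known. The genes named were, for a list and comparison described, up to 4 called members with the largest absolute change and up to 2 further members, the 8 genes most like and the 4 most unlike XERICO, and genes with a RING name. Relatives by protein sequence were not analysed here. Alternatives were scaling, a replicate block, array weights, a filter on dim probe sets, the trend, the arrays fitted, and leaving out each array.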

Additional observations from a re-analysis of the deposited data

Results flagged for a closer look

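Every osmotic leaf array of XERICO lay above the mock leaf mean and every osmotic root array below the mock root mean, with a root minus leaf difference of the response of -1.55, and this difference was not tested, because the gene was chosen with these values known. The other genes are listed because the organ difference of their mannitol response passed the test in the limma fit (adjusted p below 0.05). Among genes of the ABA and gibberellin lists, it was -1.77 for COR15A, -1.41 for COR15B, -2.18 for HIS1-3, -0.99 for AT1G67800, -1.30 for PUB19 and -0.76 for GID1A, on the side of XERICO, and 1.63 for LEA4-5 and 0.88 for HVA22C on the other side. Among markers, it was 2.48 for the guard cell marker AT1G22690, 1.19 for PSAE-1 and -0.77 for RCA of photosynthesis, -0.87 for the root marker AT3G01190, and 1.44 for CML38 and 1.04 for AT1G76640 of the touch-inducible genes. The RCA call was lost with median centring (adjusted p = 0.054), quantile normalisation (0.075), no trend (0.058), only the arrays of the comparison (0.063) and most single arrays left out. CML38 was lost with no trend (0.052), and CML38 and AT1G76640 with only the arrays of the comparison (0.066 and 0.074). The 2 called touch-inducible genes were 0 when mock leaf array 3, mock root array 1 or 2, osmotic leaf array 1 or osmotic root array 2 was dropped. PSAE-1 was lost when mock leaf array 2 or 3, mock root array 1 or 3, osmotic leaf array 3 or osmotic root array 2 was dropped (0.053 to 0.08). The root levels of AT1G22690, COR15A and COR15B and the leaf levels of AT3G01190 were at or near background.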

How the results depend on the processing

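For XERICO, the replicate block cannot change a difference of group means in this balanced design. Scaling and left-out arrays can change it and were tried. Array weights can change it too, but the XERICO differences were not computed with them. Median centring and quantile normalisation gave 0.99 and 0.91 for osmotic against mock leaves, -0.55 and -0.67 for osmotic against mock roots, -0.23 and -0.25 for day 11 against mock leaves, and -0.56 and -0.64 for day 11 against mock roots. Leaving out single arrays gave 0.86 to 1.04 for osmotic against mock leaves, -0.79 to -0.49 for osmotic against mock roots, -0.33 to -0.15 for day 11 against mock leaves and -0.77 to -0.48 for day 11 against mock roots. The small differences near 0 changed sign within that range, at -0.09 to 0.14 for day 11 against osmotic roots and -0.07 to 0.01 for osmotic roots against osmotic leaves. XERICO has 1 probe set, so no other was tried.

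The same-numbered arrays correlated at -0.289 to 0.346 in their deviations from the group means. In 0 of 7 comparisons did every pair pass 0.1, and in 0 did every array correlate best with its own number. For day 11 against mock leaves 5 of 6 arrays did. For day 11 against mock roots and against osmotic leaves 4 of 6 did, and in the other comparisons 1 to 3 of 6. These few arrays do not settle whether the numbers belong together, and they were not taken as pairs. With the replicate block, 4635 probe sets were called in osmotic leaves and 5505 in osmotic roots, and the XERICO differences were 0.92 and -0.63 as before.

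As a ratio, counts of called probe sets moved most for day 11 against mock leaves. Array weights gave 8204 for osmotic against mock roots (5523), 1515 for day 11 against mock leaves (248 in the fit reported) and 3423 for day 11 against mock roots (1741). With only the arrays of the comparison, they were 127 for day 11 against mock leaves, 3063 for osmotic against mock leaves (4694) and 1795 for day 11 against osmotic leaves (3888). ABA list members called in day 11 leaves (2) were 4 with array weights and 0 with only the arrays of the comparison, where 5 were called in day 11 roots (2). Without single arrays the called probe sets ranged from 92 to 359 for day 11 against mock leaves, 790 to 1970 for day 11 against mock roots, 3048 to 5248 for osmotic against mock leaves and 2423 to 4065 for day 11 against osmotic leaves, and the ABA list members in day 11 leaves from 0 to 3. Of 114 calls of single list genes over 8 comparisons, 81 held under every alternative run and 33 were lost under at least 1, while 37 others were called under at least 1. The cause was not tested. Of the 8 genes most like XERICO, 0 were among the first 8 by Spearman's rho, 3 by group means, 2 with organ means removed and 7 after quantile normalisation.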
